A study of Mus musculus with 4 samples.

Results

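The Cyp2c family was represented by 10 listed mouse symbols, Cyp2c29, Cyp2c37, Cyp2c38, Cyp2c39, Cyp2c40, Cyp2c44, Cyp2c50, Cyp2c54, Cyp2c55 and Cyp2c70. Members were taken as the gene probes whose name in the scanner files is one of these symbols. This gave 13 probes for 9 of the 10 symbols, among 39429 probes and 30204 gene or transcript names on the array. Cyp2c40 has no probe of its own name. RNA came from livers of male C57BL/6J mice on a high-fat diet (HFD) for 24 weeks, with 1 array for each of 4 groups. Drp1LiKO mice, with liver deficiency of the mitochondrial fission GTPase Drp1, were compared with Cont mice, their Drp1 flox/flox littermates. The labels give the refed Cont and Drp1LiKO livers as taken after a 17 h fast and 4 h of refeeding. They name no feeding state for the other Cont and Drp1LiKO livers, which are called fasted here from the study's description, and they state that the raw data of these 2 arrays also belong to an earlier submission. Drp1LiKO mice carried Alb-Cre on Drp1 flox/flox, so the albumin promoter, active in hepatocytes, drives the deletion, and diet feeding began at 4 weeks of age per the methods.

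CYP2C enzymes are membrane-bound monooxygenases of the endoplasmic reticulum, fed with electrons by the reductase Por. In hepatocytes they oxidize drugs, steroids and polyunsaturated fatty acids. The mouse family is known for converting arachidonic acid to epoxyeicosatrienoic acids, lipid mediators that soluble epoxide hydrolase (Ephx2) turns into diols, and several members are induced through the nuclear receptors Nr1i3 (CAR) and Nr1i2 (PXR). Cyp2c70 is a specialised member that makes the muricholic acids of mouse bile.

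Because the family arose by gene duplication, a probe can bind the transcripts of several members, so the probe sequences come before the values. All coordinates of probes are those of mm9 in the scanner files, and each probe has 60 bases. The 13 probes lie on chromosome 19. The probe of Cyp2c44, whose RefSeq symbol is Cyp2c23, is at chr19:44079535-44079594, apart from the others, which lie between the Cyp2c55 probe at chr19:39116674-39116733 and the Cyp2c70 probe at chr19:40227969-40228028. The closest pair among the listed symbols is within Cyp2c54, where 2 of 3 probes overlap by 42 bases, shown in capitals. The first starts at base 760 of the transcript (chr19:40144659-40144718, minus strand). The second starts at base 778 and crosses an exon junction (chr19:40122119-40144700, minus strand).
Cyp2c54, base 760: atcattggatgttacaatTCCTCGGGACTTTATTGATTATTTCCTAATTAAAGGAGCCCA
Cyp2c54, base 778: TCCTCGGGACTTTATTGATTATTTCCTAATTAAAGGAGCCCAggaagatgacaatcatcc
These 2 probes are therefore not independent readings of Cyp2c54.

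Between different members, the coding probes of Cyp2c29 (chr19:39403642-39403701) and Cyp2c37 (chr19:40084382-40084441, base 1242 of the transcript) are the pair shown next. They match at 27 of 31 aligned bases, given in capitals.
Cyp2c29: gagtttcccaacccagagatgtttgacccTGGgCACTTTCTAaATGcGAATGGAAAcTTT
Cyp2c37, base 1242: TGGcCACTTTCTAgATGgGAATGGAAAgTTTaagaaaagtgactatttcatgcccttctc
The other Cyp2c37 probe (base 1557, chr19:40086467-40086526) and the Cyp2c50 probe (chr19:40188154-40188213) are closer, and match at 35 of 39 aligned bases. A window of 30 bases, of which they share 26, is shown with the differing bases in capitals.
Cyp2c37, base 1557: cacactggacaCactgACttttatccaGtt
Cyp2c50: cacactggacaTactgCTttttatccaTtt
Over the whole array, a run of 20 identical bases with another probe was found for the overlapping Cyp2c54 pair and for 1 pair outside the list, Cyp2c67 and Cyp2c68. That pair matches at 55 of 59 aligned bases. It matches at 29 bases of the window of 30 shown, with the differing base in capitals.
Cyp2c67, base 1566: cagtcccagAaattccatctatattccttc
Cyp2c68: cagtcccagGaattccatctatattccttc
The other Cyp2c67 probe and the Cyp2c68 probe list accessions of Cyp2c40 among those they detect, so their signal is the nearest reading of Cyp2c40. The Cyp2c68 probe also lists an accession of Cyp2c69. The Cyp2c40 signal cannot be separated from those of Cyp2c67, Cyp2c68 and Cyp2c69. Only probe against probe was compared, since transcripts of this build were not used here.

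The values of the whole array set the scale on which the members are read. The share of gene spots well above background lay between 48.7% and 58.2% over the 4 arrays, and the signal at the 75th percentile was 461 in Cont, 722 in Drp1LiKO, 357 in refed Cont and 526 in refed Drp1LiKO. Each level below is the log2 signal minus the log2 of that 75th percentile. The hepatocyte genes Alb and Ttr, which encode albumin and transthyretin, were also lower in Drp1LiKO on this scale, by differences of -0.52 and -0.63 after fasting and of -0.55 and -0.66 after refeeding, and the Alb difference became 0.13 after fasting and 0.01 after refeeding with no scaling. Other hepatocyte markers went otherwise: Cps1, of the urea cycle, was higher in Drp1LiKO (0.60 and 1.24), and Ass1, of the same cycle, differed by -0.12 after fasting, which became 0.53 with no scaling, and by 0.28 after refeeding. The summed level of 7 hepatocyte markers was 2387 in Cont, 1716 in Drp1LiKO, 2880 in refed Cont and 2088 in refed Drp1LiKO, in multiples of the 75th percentile. For 5 macrophage markers the summed levels were 87.8, 90.4, 90.5 and 140 in the same order. In that order the sums were 4.73, 2.49, 4.94 and 8.89 for 5 neutrophil genes. They were 53.9, 45.0, 57.0 and 38.5 for 5 endothelial genes. For 6 stellate cell genes the sums were 2.03, 4.38, 2.50 and 2.77, and for 5 cholangiocyte genes 0.494, 1.08, 0.564 and 1.02. On none of the 4 arrays was Epcam, a cholangiocyte marker, well above background. All these sums are at this scaling, and none was computed with no scaling. There the Ttr differences, like that of Alb, shrank, to 0.02 after fasting and -0.10 after refeeding. The part of these markers in the Cyp2c differences was not tested. In bulk liver RNA fewer hepatocytes, less RNA per hepatocyte and an effect of the scaling cannot be told apart. The probe of the targeted gene Dnm1l had log2 levels of 1.02 in Cont, 0.81 in Drp1LiKO, 0.66 in refed Cont and 0.54 in refed Drp1LiKO, and whether it lies in the deleted part is not known here, so it checks no label.

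**Figure D1:**
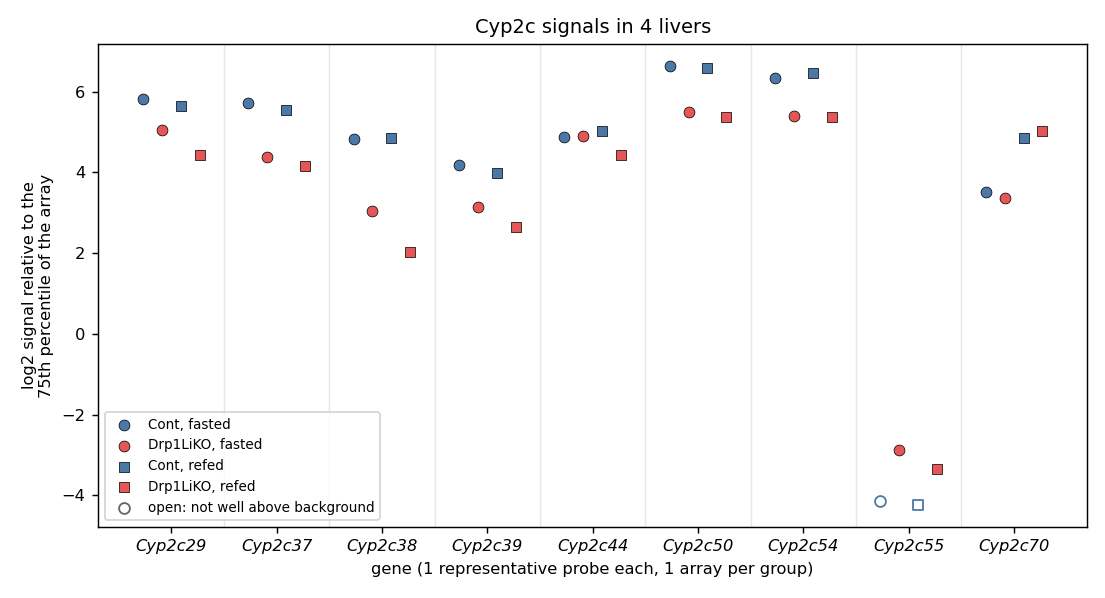
Log2 signal relative to the 75th percentile of each array (y axis) for the representative probe of 9 Cyp2c genes (x axis), 1 point per liver, with blue for Cont, red for Drp1LiKO, circles for fasted and squares for refed livers. In 6 genes, Cyp2c29, Cyp2c37, Cyp2c38, Cyp2c39, Cyp2c50 and Cyp2c54, both red points lie below both blue points, while in Cyp2c70 both squares lie above both circles.

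The members were chosen by family name with their genotype differences, lower in the Drp1LiKO liver for most of them, already known, so the counts and medians of genotype differences describe them and support nothing beyond that. With 1 array per group no difference has a test. The standard errors (SE) come from the scanner's error model and do not include differences between animals or the choice of scaling. For the bright member probes they were 0.20 alike, also for Cyp2c29 with its 10 spots, so 2 SE is nearly the same cutoff for these. After fasting, 4 of 9 members were at least 2-fold lower in the Drp1LiKO than in the Cont liver (Cyp2c37, Cyp2c38, Cyp2c39 and Cyp2c50), and 1 was at least 2-fold higher (Cyp2c55). Of 17946 genes measured, 5.03% were at least 2-fold lower and 4.52% at least 2-fold higher. After refeeding, 6 of 9 members were at least 2-fold lower (Cyp2c29, Cyp2c37, Cyp2c38, Cyp2c39, Cyp2c50 and Cyp2c54) and 0 at least 2-fold higher, against 6.34% and 4.03% of 17366 genes. The median difference over the members was -0.95 after fasting and -1.20 after refeeding, against -0.09 and -0.06 over all genes. No p-value exists for these counts.

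The size of these differences depends on the scaling. With no scaling between arrays, the median of all genes measured moved from -0.09 to 0.53 after fasting and from -0.06 to 0.47 after refeeding, and the median of the members was -0.30 and -0.64. Relative to Alb on the same array, the members' medians were -0.43 and -0.65. The scalings were compared on representative probes. Under all 7 of them, 6 members were lower in Drp1LiKO after fasting (Cyp2c29, Cyp2c37, Cyp2c38, Cyp2c39, Cyp2c50 and Cyp2c54) and 7 after refeeding (the same 6 and Cyp2c44). By its representative probe, Cyp2c38 alone was at least 2-fold lower under all 7 scalings, in both feeding states.

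**Figure D2:**
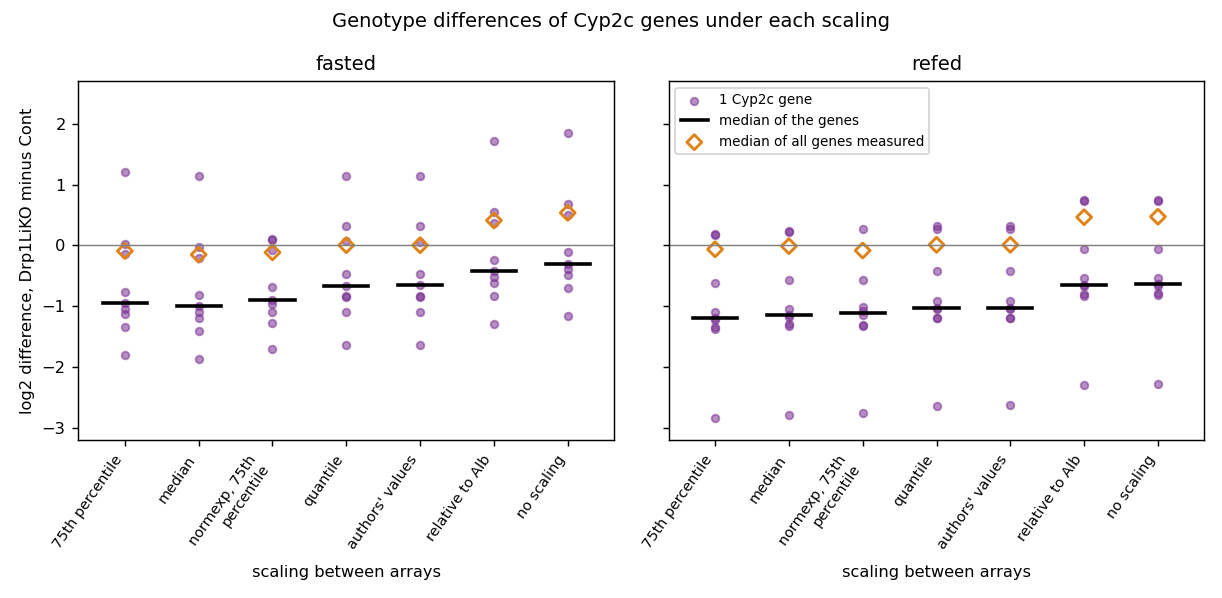
Log2 difference, Drp1LiKO minus Cont (y axis), of the Cyp2c genes under 7 scalings between arrays (x axis), after fasting on the left and after refeeding on the right. Each purple point is 1 gene, black lines are the median of the genes and orange diamonds the median of all genes measured. The black line lies below the diamond under each scaling, and it moves from -0.95 to -0.30 after fasting and from -1.20 to -0.64 after refeeding when scaling is left out.

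Cyp2c38 forms epoxides of arachidonic acid. Its representative probe (base 1440 of the transcript, chr19:39465415-39465474) had signals of 13159 in Cont, 5909 in Drp1LiKO, 10373 in refed Cont and 2132 in refed Drp1LiKO. Both Drp1LiKO livers were below both Cont livers, and the refed Drp1LiKO liver was the lowest. On the scaled log2 levels of 4.84, 3.03, 4.86 and 2.02, this was 3.49-fold lower after fasting (log2 difference -1.80, SE 0.20) and 7.16-fold lower after refeeding (-2.84, SE 0.20). The difference was thus wider after refeeding, by -1.04 (SE 0.29). Over the 7 scalings the value ranged from -1.86 to -1.16 after fasting and from -2.84 to -2.28 after refeeding. The other Cyp2c38 probe (base 2417, chr19:39464438-39464497) was dimmer, with signals of 115, 121, 44.6 and 8.41 in the same order, and was not well above background in the refed Drp1LiKO liver. It gave a difference of -0.57 (SE 0.24) after fasting and a refed Drp1LiKO level at least 2.91-fold lower than refed Cont. The probes of Cyp2c38 shared their direction in both feeding states at this scaling, but after fasting not the size. With no scaling, the dimmer probe was slightly higher in fasted Drp1LiKO (121) than in fasted Cont (115). After refeeding the sizes cannot be compared, since the dimmer probe gave only a bound.

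Cyp2c29, a member inducible through CAR, is printed in 10 spots per array. Its mean signals were 25763 in Cont, 23771 in Drp1LiKO, 17938 in refed Cont and 11317 in refed Drp1LiKO, and the SD of log2 signal over its 10 spots lay between 0.024 and 0.049. The order of scaled log2 levels was Cont (5.81), refed Cont (5.65), Drp1LiKO (5.04) and refed Drp1LiKO (4.43). The Cont levels lay within the SE of their difference, and the Drp1LiKO levels differed from both of them by over 2 SE. The genotype difference was -0.76 (SE 0.20) after fasting, where it ranged from -0.82 to -0.12 over the scalings, and -1.22 (SE 0.20) after refeeding, where it ranged from -1.22 to -0.66.

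Cyp2c37, which hydroxylates arachidonic acid, has 2 probes. The representative one (base 1557) had signals of 24243, 14988, 16707 and 9460 in Cont, Drp1LiKO, refed Cont and refed Drp1LiKO, or scaled log2 levels of 5.72, 4.38, 5.55 and 4.17. With values of -1.34 (SE 0.20) in fasted and -1.38 (SE 0.20) in refed livers, its genotype difference changed by less than the SE between feeding states. The other probe (base 1242, part of which matches the Cyp2c29 probe printed above) had signals of 3032, 2623, 2005 and 1352. It also placed both Drp1LiKO livers below both Cont livers at this scaling, with differences of -0.86 (SE 0.20) and -1.13 (SE 0.20).

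Cyp2c50 is the neighbour whose probe shares bases with that of Cyp2c37. Signals were 45821 in Cont, 32785 in Drp1LiKO, 34163 in refed Cont and 21909 in refed Drp1LiKO, and the scaled log2 levels were 6.64, 5.51, 6.58 and 5.38. The levels formed a high pair of Cont livers and a low pair of Drp1LiKO livers, with no gap beyond the SE inside either pair. Drp1LiKO was 2.19-fold lower after fasting (log2 difference -1.13, SE 0.20) and 2.30-fold lower after refeeding (-1.20, SE 0.20).

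Cyp2c39 is known both as an epoxygenase and as a retinoic acid hydroxylase. Its probe (chr19:39642568-39642627, base 1405) gave 8330 in Cont, 6334 in Drp1LiKO, 5647 in refed Cont and 3268 in refed Drp1LiKO. The scaled log2 levels were 4.18, 3.13, 3.98 and 2.64, again with both Drp1LiKO livers below both Cont livers, and genotype differences of -1.04 in fasted and -1.35 in refed livers (SE 0.20 each).

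Cyp2c54, a fatty acid-oxidizing member next to Cyp2c50, was read differently by its probes. The representative probe (base 1614, chr19:40112528-40112587) had signals of 37513, 30529, 31450 and 21812 in Cont, Drp1LiKO, refed Cont and refed Drp1LiKO, and genotype differences of -0.95 in fasted and -1.09 in refed livers (SE 0.20 each). The overlapping probes printed above gave 5705, 8431, 3791 and 3531 (base 760) and 1486, 2340, 976 and 960 (base 778). Their fasted genotype differences were -0.08 and 0.01 (SE 0.20 each), and their refed differences were -0.66 and -0.58 (SE 0.20 each). After fasting the lower Cyp2c54 level in Drp1LiKO was therefore seen at base 1614 of the transcript and not at bases 760 and 778. What the 3 probes each bind was not tested.

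Cyp2c44 is an epoxygenase that lies apart from the cluster. Its signals were 13438 in Cont, 21494 in Drp1LiKO, 11666 in refed Cont and 11254 in refed Drp1LiKO, or scaled log2 levels of 4.87, 4.90, 5.03 and 4.42. The fasted livers did not differ beyond the SE (0.03, SE 0.20), and that value turned to -0.03 with median scaling and reached 0.68 with no scaling. After refeeding Drp1LiKO was lower by a difference of -0.61 (SE 0.20), which was -0.05 with no scaling. The change of the genotype difference from fasted to refed was -0.64 (SE 0.29).

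Cyp2c55, an arachidonic acid hydroxylase induced through CAR and PXR, was the dim member. Its signals were 26.2 in Cont, 98.5 in Drp1LiKO, 18.9 in refed Cont and 51.3 in refed Drp1LiKO, and it was well above background in the Drp1LiKO livers only. Drp1LiKO was at least 2.30-fold higher after fasting, a log2 bound of 1.20 (SE 0.53) that was 0.10 with normexp background correction. After refeeding the bound was 0.19 (SE 0.71), less than its SE, and normexp gave no value. Without this dim gene 0 members were at least 2-fold higher in Drp1LiKO.

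**Figure D3:**
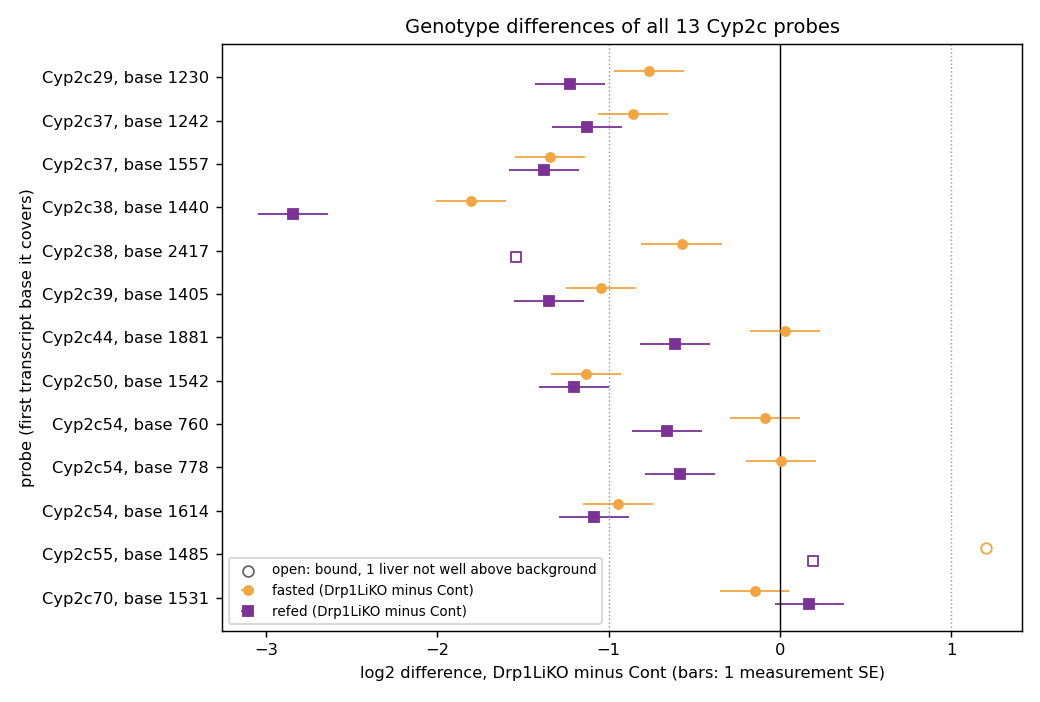
Log2 difference, Drp1LiKO minus Cont (x axis), of each of the 13 Cyp2c probes (y axis, with the first transcript base of the probe), in orange for fasted and purple for refed livers, with bars of 1 measurement SE. The widest difference is that of Cyp2c38 at base 1440 after refeeding (-2.84), the Cyp2c54 probes at bases 760 and 778 lie at -0.08 and 0.01 after fasting, and open symbols are bounds.

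Among the 8 members measured on all 4 arrays, 7 had a lower genotype difference after refeeding than after fasting, and Cyp2c70 a higher one (0.32, SE 0.29). By representative probes, the change was over 2 SE for Cyp2c38 and Cyp2c44. For Cyp2c54 it depended on the probe, at -0.14 for the representative one, -0.58 at base 760 and -0.59 at base 778 (SE 0.29 each). The median change over the 9 members was -0.30, and it lay between -0.46 and -0.20 over the alternatives. In that median Cyp2c55 entered as a difference between bounds, which does not measure its change. The same change over all genes is not given here.

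The refeeding comparison asked how fasted and refed livers of 1 genotype differ. In Cont, 0 of 8 members were at least 2-fold lower and 1, Cyp2c70, was at least 2-fold higher after refeeding, against 3.67% and 3.69% of 16359 genes. The other 7 members lay within 2 SE of no difference, and 3 of them changed sign with the scaling: Cyp2c38 was 0.02 and -0.21 with quantile normalization, Cyp2c44 was 0.16 and -0.09, and Cyp2c54 was 0.11 and -0.19. The dimmer Cyp2c38 probe at base 2417 was at least 2-fold lower in refed than in fasted Cont (signals of 44.6 and 115), unlike the representative probe. In Drp1LiKO, 1 of 9 members, Cyp2c38, was at least 2-fold lower (-1.01, SE 0.20) and 1, Cyp2c70, at least 2-fold higher, against 4.74% and 4.52% of 18237 genes. The median over the members was -0.02 in Cont and -0.48 in Drp1LiKO, against 0.10 and 0.08 over all genes. Cyp2c29 (-0.61), Cyp2c39 (-0.50) and Cyp2c44 (-0.48, SE 0.20 each) were also lower in the refed than in the fasted Drp1LiKO liver by over 2 SE. For Cyp2c54 and Cyp2c37 this depended on the probe. Their representative probes gave -0.03 and -0.21. The Cyp2c54 probes at bases 760 and 778 gave -0.80 and -0.83, and the Cyp2c37 probe at base 1242 gave -0.50 (SE 0.20 each).

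Cyp2c70, the muricholic acid enzyme, was the member higher after refeeding. Its signals were 5220 in Cont, 7380 in Drp1LiKO, 10264 in refed Cont and 17039 in refed Drp1LiKO, with scaled log2 levels of 3.50, 3.35, 4.85 and 5.02. Both refed livers were above both fasted livers. Refeeding was 2.54-fold higher in Cont (log2 difference 1.34, SE 0.20) and 3.17-fold higher in Drp1LiKO (1.66, SE 0.20). The values were at least 0.98 in Cont and at least 1.21 in Drp1LiKO over the 7 scalings. Its genotype differences were within the SE at -0.15 after fasting, where they turned to 0.07 with quantile normalization and 0.50 with no scaling, and at 0.17 after refeeding (SE 0.20 each), where they were 0.33 with quantile normalization and 0.73 with no scaling.

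**Figure D4:**
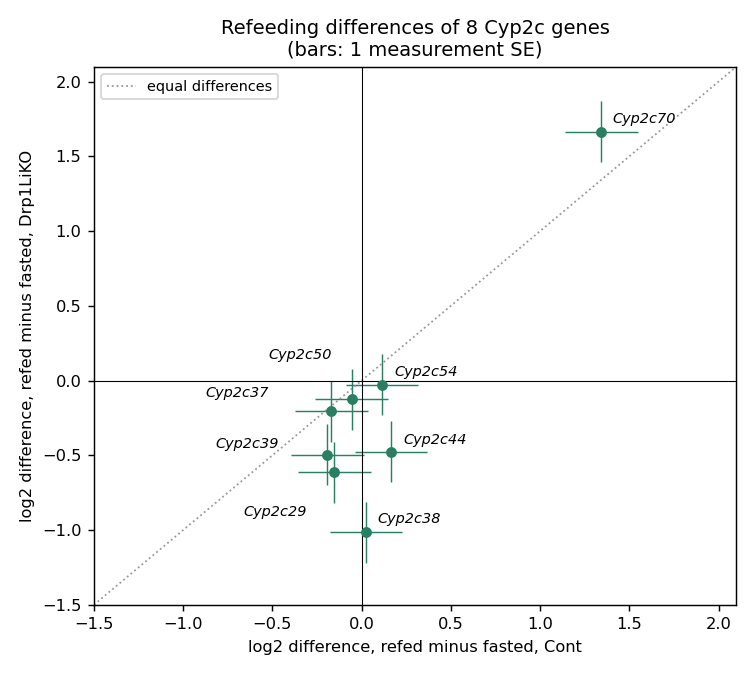
Log2 difference, refed minus fasted, in Cont (x axis) and Drp1LiKO livers (y axis) for the 8 Cyp2c genes measured on all 4 arrays, with bars of 1 measurement SE and a dotted line of equal differences. Cyp2c70 stands at 1.34 and 1.66, Cyp2c38 at 0.02 and -1.01, and the other genes lie between -0.19 and 0.16 in Cont.

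Of the 4 Cyp2c genes outside the list with a probe of their name, Cyp2c67 and Cyp2c68 were measured on all 4 arrays. Cyp2c67 at base 1566 was at 23686, 19134, 20120 and 9817 in Cont, Drp1LiKO, refed Cont and refed Drp1LiKO, with genotype differences of -0.96 and -1.59 (SE 0.20 each). The probes that list Cyp2c40 accessions gave -0.48 and -1.09 (Cyp2c67, base 1454) and -0.70 and -1.40 (Cyp2c68). Each of these 3 probes was lower in Drp1LiKO in both feeding states at this scaling, and wider apart after refeeding by differences between -0.70 and -0.61 (SE 0.29). Cyp2c65 and Cyp2c66 were not well above background on any array.

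The sequence upstream of the genes was read because most members share a direction. RefSeq entries on GRCm38.p6 matched 8 of the 10 symbols and gave 9 promoters, with 2 start sites for Cyp2c39. Motifs were searched on both strands in the 250 bases before each start. CAAAGT, the core of the HNF4A element, was present in 8 of 9 of these promoters and in 12.6% of 32851 promoters of the same length. AGGTCA and AGTTCA, half-sites of nuclear receptors, were each present in 3 of 9, against 14.0% and 11.8% of all promoters, and TATAAA was present in 4 of 9, against 12.4%. The last bases of CAAAGT can be the first of AGTTCA, and no such overlap lies in the promoters printed here. These promoters are copies of each other in part, with 86% identity between Cyp2c37 and Cyp2c50, so their matches are not independent. Cyp2c37 and Cyp2c50 had similar profiles over the 4 livers. Their representative probes share bases, and the part of this in the likeness was not tested. Cyp2c70 was higher after refeeding. The promoters of Cyp2c37 (chr19:39992174-39992423, plus strand), Cyp2c50 (chr19:40089429-40089678, plus strand) and Cyp2c70 (chr19:40187287-40187536, minus strand) are shown. Matches to any of the 4 motifs on either strand are in capitals.
Cyp2c37: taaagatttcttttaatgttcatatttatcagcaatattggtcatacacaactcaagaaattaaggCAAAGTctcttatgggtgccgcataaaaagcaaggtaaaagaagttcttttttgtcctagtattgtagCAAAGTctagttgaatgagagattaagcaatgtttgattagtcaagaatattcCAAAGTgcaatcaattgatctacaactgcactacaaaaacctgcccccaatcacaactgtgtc
Cyp2c50: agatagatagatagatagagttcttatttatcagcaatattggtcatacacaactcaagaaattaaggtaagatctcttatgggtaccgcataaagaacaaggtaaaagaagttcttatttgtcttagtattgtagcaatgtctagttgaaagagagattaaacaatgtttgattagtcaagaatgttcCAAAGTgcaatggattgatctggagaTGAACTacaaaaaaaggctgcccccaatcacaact
Cyp2c70: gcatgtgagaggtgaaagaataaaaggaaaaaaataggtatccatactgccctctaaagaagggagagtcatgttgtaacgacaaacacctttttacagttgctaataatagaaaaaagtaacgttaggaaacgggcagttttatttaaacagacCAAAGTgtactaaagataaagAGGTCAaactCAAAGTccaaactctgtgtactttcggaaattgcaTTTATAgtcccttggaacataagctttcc
A match is a string of letters in the window and was not tested for binding.

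Genes that act with the family were read from lists chosen for their function. Por, which supplies the P450 enzymes with electrons, had genotype differences of -0.76 after fasting and -1.01 after refeeding (SE 0.20 each) and was lower under each of the 7 scalings. In the list of electron transfer and heme supply, 0 of 14 genes were at least 2-fold lower after fasting (median -0.41) and 1, Por, after refeeding (median -0.45). Hmox1, which degrades heme, was higher in Drp1LiKO in both feeding states (0.69 and 1.02). Ephx2, which hydrolyses the epoxides, differed by -0.30 after fasting, which became 0.34 with no scaling, and by -0.73 after refeeding. Ephx3, another epoxide hydrolase, differed by -0.64 and -0.56, which became 0.01 after fasting and -0.0047 after refeeding with no scaling. None of 3 measured epoxide hydrolases differed 2-fold. Of 17 other arachidonic acid P450s, 1 was at least 2-fold lower in both feeding states, Cyp2j5, an epoxygenase of another subfamily (-1.17 and -1.01), while 3 were at least 2-fold higher after fasting and 1 after refeeding. Cyp4f16 was higher in both feeding states (1.15 and 1.08). It was dim in Cont (log2 levels of -3.03 fasted and -3.04 refed), and its differences fell to 0.58 and 0.39 at their lowest over the scalings. The medians of that list were -0.05 and 0.03.

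Among 20 measured regulators of Cyp2c genes, 3 were at least 2-fold lower after fasting and 0 higher, and after refeeding 4 of 21 were lower and 0 higher, with medians of -0.34 and -0.38. Onecut1, a hepatocyte transcription factor, was at least 2-fold lower in both feeding states (-1.54 after refeeding), and Ppara, the fatty acid receptor, by -1.06 and -1.39. Bcl6 was lower after fasting (-1.05) and higher after refeeding (0.44), and Nr0b2 was higher after fasting (0.69) and lower after refeeding (-1.36), with SE of 0.20 to 0.21. The fourth after refeeding, Cux2, was listed at a bound of -1.16. The receptors known to induce the family differed by less: Nr1i3 by -0.86 and -0.46, the latter turning to 0.10 with no scaling, and Nr1i2 by -0.36, which became 0.29 with no scaling, and -0.98. Hnf4a differed by -0.32 and -0.38, which became 0.32 and 0.18 with no scaling. The glucocorticoid receptor gene Nr3c1 differed by -0.18 and -0.11, which became 0.46 and 0.45, and the retinoid-related receptor gene Rora was higher in both feeding states (0.59 and 0.37).

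Of 19 measured genes of the other family 2 P450s, 4 were at least 2-fold lower after fasting and 0 higher, with a median of -0.56, and the 18 with a value after refeeding held 4 lower and 0 higher, with a median of -0.63. Cyp2b10, the standard target gene of CAR, differed by -1.35 after fasting and -2.89 after refeeding, and Cyp2b13 by -1.65 and -3.47. Cyp2d40 differed by -1.71 and -1.79. Of 7 measured Cyp3a genes, 0 were at least 2-fold lower after fasting (median 0.23) and 3 after refeeding (median -0.91). Cyp3a41b (0.60 and -1.92) and Cyp3a16 (0.75 and -1.69), close relatives whose probes may bind each other's transcripts, had the widest differences on average. Among 14 genes of bile acid synthesis, the pathway of Cyp2c70, 1 was at least 2-fold lower after fasting (Cyp7b1, an oxysterol hydroxylase, -1.34) and 1 at least 2-fold higher after refeeding (Cyp7a1, the rate-limiting enzyme, 1.61). The retinoic acid hydroxylases Cyp26a1 (2.78 and 1.55) and Cyp26b1 (1.28 and 0.64), which share a substrate with Cyp2c39, were higher in Drp1LiKO in both feeding states. Cyp26a1 was dim in fasted Cont (log2 level -3.59), and its differences fell to 1.63 and 1.14 at their lowest over the scalings. Of the 7 hepatocyte markers, 0 were at least 2-fold lower in either feeding state and 1, Cps1, was at least 2-fold higher after refeeding, with medians of -0.32 and -0.38. The members' medians of -0.95 and -1.20 thus lay below those of the hepatocyte markers and of the other family 2 P450s at this scaling. That gap has no test.

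Profiles over the 4 arrays were compared as the root mean square (RMS) distance, on the log2 scale, from the median profile of the 8 members measured on all of them. The nearest of 14381 other genes were Gm14484 (0.030), Pdp2 (0.042), Gm9881 (0.054), Gm826 (0.057) and Tspan33 (0.060). Of the members, Cyp2c50 was the nearest (0.037), while Cyp2c44 (0.46), Cyp2c38 (0.64) and Cyp2c70 (1.02) were the farthest. Over 4 arrays such a likeness is a description only.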

How the data were processed

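Liver RNA was hybridized to 4 one-color Agilent arrays. The intensity values were deposited by the authors as scanner output: per the file headers, Feature Extraction 10.7.1.1 subtracted the background within each array (the labels name version 9.5.1.1). The authors' table of normalized intensity was an alternative, and for the Cyp2c probes it differed by at most 0.0028 (log2) from a quantile normalization of these signals. Each log2 signal was expressed as its difference from the log2 of the array's 75th percentile. Spots of a probe were averaged, and outlier-flagged spots were left out, which removed 37 probes. Where a gene had several probes, preference went to detection on more arrays, then to the higher mean signal. A dim side was set to the array's lowest detected signal or its own signal, whichever was larger, giving "at least" folds. A gene counted as different at 2-fold if its brighter side was well above background. With 1 array per group no p-value exists, and the number of arrays limits the precision. SEs are those of the scanner's error model.

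The members and lists were chosen with earlier results of these data known. The result of 1 marker list is not reported here. Named by rule are all members, the other Cyp2c genes, Nr1i2, Nr1i3, Nr3c1, Hnf4a, Ppara, Rora, Por, Ephx2 and Dnm1l, the genes of each list past 2-fold the same way in both feeding states (otherwise the 2 with the widest mean difference) and the 5 nearest profiles. Alb, Ttr, Cps1, Ass1, Bcl6, Nr0b2, Cux2 and Cyp26b1 were named after their values were seen. Likeness was the RMS distance between profiles centred over 4 arrays. Alternatives were median scaling, quantile normalization, the authors' values, normexp with an offset of 50, the median over all probes, the dim side as measured, probes measured on all 4 arrays and a 1.5-fold threshold. No scaling, scaling to Alb, adding Cyp2c67 and Cyp2c68, and leaving out Cyp2c55 were chosen after seeing the data. The fold rule was run on simulated data with changes well past 2-fold and no differences between animals. That run checks the code and lends the 2-fold counts no support. Python 3.11.15 with numpy 2.4.6, pandas 2.3.3, matplotlib 3.10.9 and Biopython 1.88 were used, with limma 3.58.1 in R 4.3.3.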

Additional observations from a re-analysis of the deposited data

How the results depend on the processing

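No result over the members changed sign under any alternative. The median genotype difference after fasting (-0.95) became -0.66 with quantile normalization and with the authors' values, -0.43 relative to Alb and -0.30 with no scaling, and the count at least 2-fold lower (4) became 2, 2, 1 and 1. The count at least 2-fold higher (1) became 0 with normexp, with probes measured on all 4 arrays and without Cyp2c55. After refeeding, the median (-1.20) became -0.65 relative to Alb and -0.64 with no scaling, and the count lower (6) became 1 in both. For refeeding in Cont, the median (-0.02) became -0.28 with quantile normalization and the authors' values, -0.32 relative to Alb and -0.38 with no scaling, where the count higher (1) became 0. For refeeding in Drp1LiKO, the median (-0.48) became -0.27 with normexp, -0.75 relative to Alb and -0.93 with no scaling, and the count lower (1) became 0 with median scaling and 2 with a 1.5-fold threshold or no scaling. The scale between arrays was thus the choice that moved most values, and the cause of the unequal array signals was not tested. The share of all genes past 2-fold is given for the main setting only, so the counts under the alternatives stand without it. With no scaling, the median genotype difference of all genes was itself 0.53 after fasting and 0.47 after refeeding. No paired analysis was possible because each group has 1 array. Signal over background limits Cyp2c55 and the second Cyp2c38 probe.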
